A study of Homo sapiens with 4 samples.

Results

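The genes of glycolysis and of the cellular response to low oxygen were followed in CD166+ and CD166- cells of 2 human pancreatic cancer lines. The set holds 36 listed genes, chosen as the steps from glucose uptake to lactate, the regulators of hypoxia-inducible factor (HIF) and other HIF target genes. Of these, 33 had an annotated probe among the 20044 genes named on the array, with 58 probes in all. SLC16A1, SLC16A3 and CA9 were not analysed here.

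CD166 is the adhesion molecule encoded by ALCAM, and the study compared cells that carry it on their surface with cells that do not. SW1990 and Panc-1, established lines from pancreatic carcinoma, were labelled with an antibody to CD166 and divided by magnetic beads. The positive cells were retained on the separator and the negative cells were collected by depletion. The 4 populations were CD166+ SW1990, CD166- SW1990, CD166+ Panc-1 and CD166- Panc-1 cells, with total RNA of each on 1 Illumina bead array. No other treatment separates the groups, and no low-oxygen culture is named in the sources used here. The time from sorting to RNA extraction is not given in them either.

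Glycolysis splits glucose into pyruvate, which is then reduced to lactate by lactate dehydrogenase or carried into mitochondria and oxidized. When oxygen is scarce, the prolyl hydroxylases that mark HIF alpha subunits for destruction lose activity, and HIF then binds DNA and raises the transcription of glucose transporters, glycolytic enzymes and genes of blood vessel growth, acid balance and mitochondrial turnover. Pancreatic carcinoma is known for poor perfusion and for high glucose use.

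With 1 array per population, no test within a line was possible, and the values within a line carry no replicate error. Signals are background-corrected and quantile-normalized intensities, and a gene is represented by its brightest probe. A gene was detected on an array at a detection p under 0.01. Folds are CD166+ over CD166-, and a gene was counted when they differed by over 2-fold with the brighter array detected. Where the dimmer array did not detect the gene, its lowest detected signal was used instead, or the probe's own if higher, so that the fold is a bound. The only spread at hand within a line is that between different probes of 1 gene. Its pooled SD was 0.44 on the log2 scale in SW1990 (1985 genes) and 0.22 in Panc-1 (2296 genes). Signals of different probes cannot be compared as levels.

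ALCAM had a signal of 293 in CD166+ SW1990 cells, against 47.3 in CD166- SW1990 cells, and 235 in CD166+ Panc-1 cells, against 44.3 in CD166- Panc-1 cells, so the gene of the sort followed the labels in both lines. The arrays detected between 9460 and 10188 genes. Across 11640 genes the Panc-1 pair correlated at 0.989, while the SW1990 pair correlated at 0.827. CD166- SW1990 cells correlated at 0.874 with CD166+ and 0.872 with CD166- Panc-1 cells, both above the SW1990 pair. For CD166+ SW1990 cells these values were 0.834 and 0.817, on either side of it. Of 5 ductal markers (KRT8, KRT18, KRT19, KRT7 and EPCAM) 5, 5, 5 and 4 were detected, and their summed signals were 8862 and 5757 in CD166+ and CD166- SW1990 cells and 13530 and 16870 in CD166+ and CD166- Panc-1 cells. Of these, 4 were over 2-fold higher in CD166+ SW1990 cells (list median 1.33), where 13.6% of all genes were. KRT7 was 33.8-fold and EPCAM 3.66-fold higher there, and KRT8 was 1.10-fold lower. In CD166+ Panc-1 cells KRT7 was at least 5.45-fold higher, the only ductal marker over 2-fold apart in that line. EPCAM was 1.65-fold higher in those cells, while KRT8, KRT18 and KRT19 were lower by 1.70-fold, 1.38-fold and 1.08-fold. The Panc-1 median of the list was -0.11 on the log2 scale. Of 8 fibroblast markers, COL1A2 alone was detected in CD166- SW1990 cells, at a signal of 2148, where the other 3 arrays did not detect it. ACTA2, COL1A1 and PDGFRB were detected in CD166+ SW1990 cells and not in CD166- SW1990 cells. The summed signals of the fibroblast list were 809 in CD166+ and 2345 in CD166- SW1990 cells, and 637 in CD166+ and 561 in CD166- Panc-1 cells. Of 5 leukocyte markers, CD68 and CD14 were detected on every array. The list summed to 508 in CD166+ and 1005 in CD166- SW1990 cells, and to 1335 in CD166+ and 1341 in CD166- Panc-1 cells. Most of each sum was CD68, with 387 in CD166+ and 860 in CD166- SW1990 cells, and 1203 in CD166+ and 1209 in CD166- Panc-1 cells. Of 4 endothelial markers, PECAM1 was detected in CD166+ SW1990 cells only (42.7) and CDH5 in CD166- SW1990 cells only (44.1). No acinar or endocrine marker was detected on any array. The part of these differences in the results below was not tested.

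Of the 33 genes, 31 were detected on at least 1 array and 26 on all 4. PDK1, the kinase that inactivates pyruvate dehydrogenase, and EGLN3, a HIF prolyl hydroxylase, were detected on none. The counts per array were 31 in CD166+ and 28 in CD166- SW1990 cells, and 30 in CD166+ and 30 in CD166- Panc-1 cells. The 3 genes that CD166- SW1990 cells alone did not show were BNIP3, CA12 and ANKRD37, all HIF targets. They are 9.68% of the 31 genes, and 516 of 11640 genes (4.43%) had the same pattern.

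**Figure D1:**
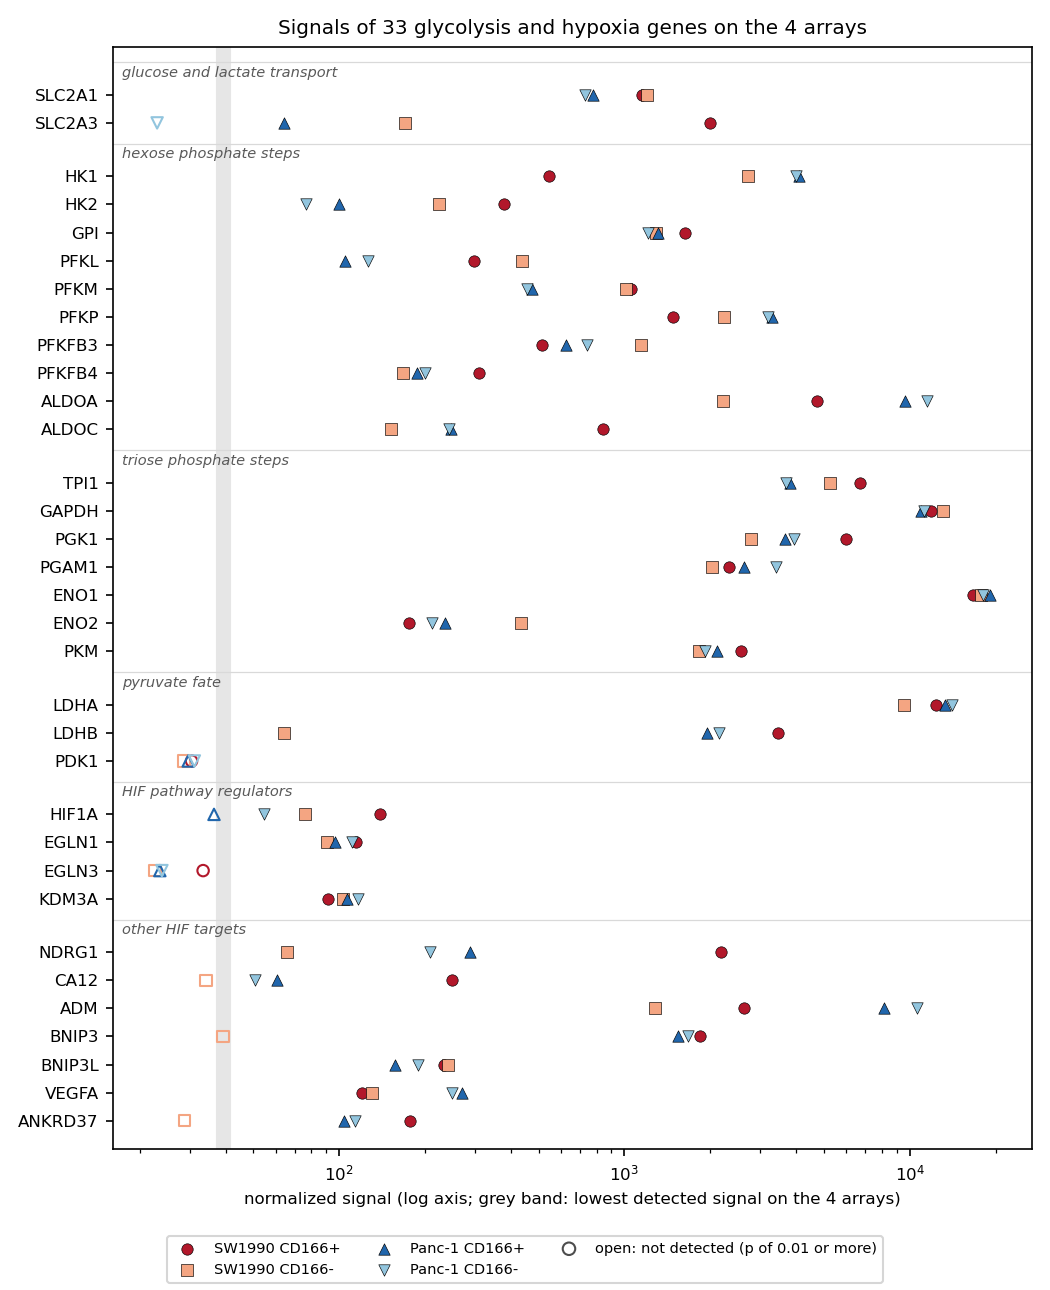
Normalized signal (log axis) of the brightest probe of each of the 33 genes on the 4 arrays, ordered by step of the pathway. Open symbols mark arrays that did not detect the gene, and the grey band spans the lowest detected signals of the 4 arrays, 37.4 to 41.5. The Panc-1 triangles lie close together in nearly every row, while the SW1990 symbols are far apart for LDHB, BNIP3, NDRG1 and SLC2A3.

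In SW1990, CD166+ cells had over 2-fold higher signals for 10 of the 31 detected genes (32.3%), where 13.6% of 10783 detected genes were. Another 3 were over 2-fold lower (9.68%), where 14.2% of all genes were. The share of genes on the higher side was thus above that of all genes. The share on the lower side rests on 3 genes, so no difference from all genes is read from it. The median log2 fold of the 31 genes was 0.35, and that of all genes was -0.03. In Panc-1, 0 of 31 were over 2-fold higher (0.598% of 10532 genes were) and 0 were over 2-fold lower (0.408% of all genes), and the median log2 fold was -0.04, with -0.01 for all genes. No gene of the set was over 2-fold apart in the same direction in both lines, where 0.326% of 11640 genes were higher and 0.103% lower in both. How the arrays are scaled moves these values. With scaling to a common median, 13 of the 31 genes were higher and 2 lower in SW1990. Of all 10783 genes, 2218 (20.6%) were then higher and 1145 (10.6%) lower. The median of all genes was at 0.21 and that of the 31 genes at 0.83.

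**Figure D2:**
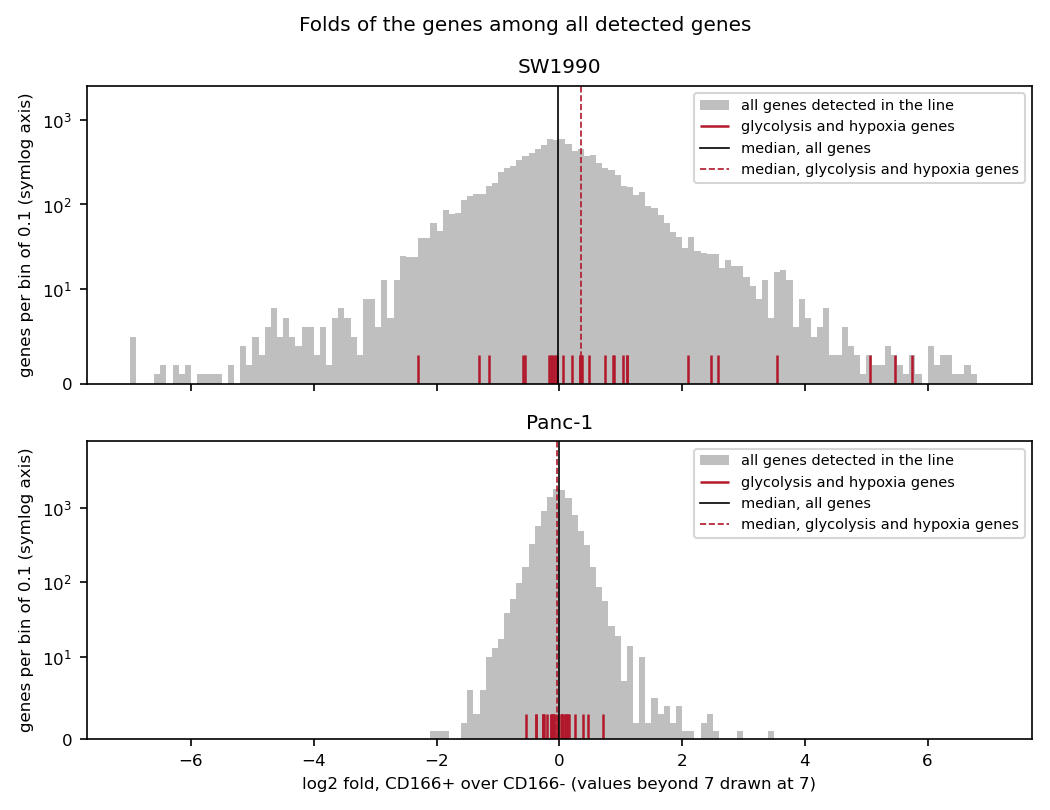
Number of genes per bin of 0.1 log2 fold of CD166+ over CD166- cells, on an axis linear near 0 and logarithmic above, for all genes detected in each line (grey) and for the glycolysis and hypoxia genes (red marks). In SW1990 the red marks reach from -2.31 to 5.75, and in Panc-1 they stay between -0.54 and 0.72.

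The glucose transporters of the set behaved unlike each other. SLC2A1, the common transporter of many tissues and a HIF target, had a signal of 1155 in CD166+ SW1990 cells, against 1198 in CD166- SW1990 cells, and 777 in CD166+ Panc-1 cells, against 729 in CD166- Panc-1 cells. These pairs differed by less than the SD between probes of a gene. SLC2A3 (chr12:7919230-7936187, GRCh38.p14), a high-affinity transporter best known from neurons, had a signal of 1996 in CD166+ SW1990 cells, against 170 in CD166- SW1990 cells, and was thus 11.7-fold higher. In CD166+ Panc-1 cells its signal was 64.0, and CD166- Panc-1 cells did not detect it (23.0), so that it was at least 1.64-fold higher in the CD166+ cells. SLC2A3 was thus higher in the CD166+ population of both lines, but its Panc-1 signal was dim.

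That dim signal has a measured companion. Among 23 genes outside the set with a signal over 1000 in CD166+ SW1990 cells and no detection in CD166- cells of either line, the excess of CD166+ over CD166- Panc-1 signal was a median of 2.78% of the excess of CD166+ SW1990 over CD166- Panc-1 signal (quartiles 1.85% and 3.24%), and for SLC2A3 it was 2.08%. With the median share of the CD166+ SW1990 signal subtracted, SLC2A3 lay below the lowest detected signal in CD166+ Panc-1 cells, and no fold is given. SLC2A3 itself would not pass the filter for those genes, since CD166- SW1990 cells detected it. Genes higher in the CD166+ cells of both lines could pass it. The source of the shared signal was not tested. Nor was cross-hybridization with the near-identical SLC2A14.

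Of the 10 genes of the hexose phosphate steps, ALDOC and ALDOA were over 2-fold higher and HK1 and PFKFB3 over 2-fold lower in CD166+ SW1990 cells. The shares of all genes were 13.6% higher and 14.2% lower. HK1 (chr10:69270000-69401882), the hexokinase of most tissues, which traps glucose as its phosphate, had a signal of 545 in CD166+ SW1990 cells, against 2703 in CD166- SW1990 cells, a 4.96-fold lower value. Its signals in Panc-1 were 4107 in CD166+ and 3984 in CD166- cells. CD166+ SW1990 cells were therefore the only low array for HK1. HK2, the inducible hexokinase and a HIF target, ran the other way in SW1990, with 378 in CD166+ and 225 in CD166- cells, and was at 99.96 in CD166+ and 76.7 in CD166- Panc-1 cells. Its log2 folds were 0.75 in SW1990 and 0.38 in Panc-1, neither over 2-fold. A second HK2 probe, detected on every array, gave 0.43 in SW1990 and -0.13 in Panc-1. The 3 further HK1 probes were detected on no array, and the mean over all its probes gave a log2 fold of -0.59 in SW1990.

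The phosphofructokinase subunits, which form the committed enzyme of the pathway, stayed within 2-fold in both lines. PFKL had 297 in CD166+ and 437 in CD166- SW1990 cells, and 105 in CD166+ and 126 in CD166- Panc-1 cells. PFKM had 1053 in CD166+ and 1012 in CD166- SW1990 cells, and 473 in CD166+ and 457 in CD166- Panc-1 cells. PFKP had 1482 in CD166+ and 2231 in CD166- SW1990 cells, and 3289 in CD166+ and 3186 in CD166- Panc-1 cells. The liver and platelet forms were lower in CD166+ SW1990 cells by more than the SD between probes, with log2 folds of -0.56 and -0.59, and the muscle form was nearly equal at 0.06. GPI, the isomerase between hexokinase and phosphofructokinase, had log2 folds of 0.34 in SW1990 and 0.12 in Panc-1.

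PFKFB3 and PFKFB4 make and remove the strongest activator of phosphofructokinase, and both are HIF targets. PFKFB3 had a signal of 515 in CD166+ SW1990 cells, against 1145 in CD166- SW1990 cells, a 2.22-fold lower value, with 623 in CD166+ and 739 in CD166- Panc-1 cells. Its second detected probe was lower by 0.67 on the log2 scale in SW1990, which is within 2-fold. PFKFB4 lay on the opposite side, with 311 in CD166+ SW1990 cells, against 168 in CD166- SW1990 cells (log2 fold 0.89). Its Panc-1 log2 fold was -0.09.

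The aldolases split the hexose into triose phosphates. ALDOC, the brain form, had a signal of 842 in CD166+ SW1990 cells, against 152 in CD166- SW1990 cells, which is 5.55-fold higher, and 246 in CD166+ and 242 in CD166- Panc-1 cells. ALDOA, the form of muscle and of most tumours, had 4738 in CD166+ and 2218 in CD166- SW1990 cells, which is 2.14-fold higher, and 9624 in CD166+ and 11537 in CD166- Panc-1 cells. Its probes differed: a second bright probe gave a log2 fold of 0.27 in SW1990, and another was detected in CD166- SW1990 cells only. The value of ALDOA over 2-fold thus rested on 1 of 3 detected probes.

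Of the 7 genes of the triose phosphate steps, PGK1 was over 2-fold higher and ENO2 over 2-fold lower in CD166+ SW1990 cells. Of all genes, 13.6% were higher and 14.2% lower. By their brightest probes, TPI1, GAPDH, PGAM1, ENO1 and PKM lay between log2 folds of -0.13 and 0.49. The other PGAM1 probe gave 0.75 and the other PKM probes 0.75 and 0.60, above the SD between probes. The other probes of GAPDH and TPI1 stayed inside that range. PGK1, phosphoglycerate kinase, which makes the first ATP of the pathway, had 5973 in CD166+ and 2780 in CD166- SW1990 cells, and 3660 in CD166+ and 3944 in CD166- Panc-1 cells. Its 2 probes gave SW1990 log2 folds of 1.10 and 1.77, so both were over 2-fold. ENO2, the neuronal enolase, had 176 in CD166+ SW1990 cells, against 435 in CD166- SW1990 cells, and was 2.47-fold lower, with 235 in CD166+ and 211 in CD166- Panc-1 cells. ENO1, the enolase of most tissues, had 16711 in CD166+ and 17833 in CD166- SW1990 cells, and 19167 in CD166+ and 18045 in CD166- Panc-1 cells. The common enolase was therefore at nearly the same signal on all 4 arrays. GAPDH, often used as a reference gene, had log2 folds of -0.13 in SW1990 and -0.04 in Panc-1.

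At the fate of pyruvate, the subunits of lactate dehydrogenase parted. LDHB (chr12:21635342-21657842), the heart-type subunit, had a signal of 3445 in CD166+ SW1990 cells, against 64.2 in CD166- SW1990 cells, or 53.7-fold more, the largest fold among those measured on both sides. Its log2 fold, 5.75, was 4.88 without background correction, 5.15 with an offset of 50 and 4.98 on the authors' scaled values. Panc-1 had 1950 in CD166+ and 2139 in CD166- cells. CD166- SW1990 cells were thus the only low array for LDHB, though they detected it. LDHA, the muscle-type subunit and a HIF target, had 12381 in CD166+ and 9535 in CD166- SW1990 cells, and 13272 in CD166+ and 14069 in CD166- Panc-1 cells. Its 3 detected probes gave SW1990 log2 folds of 0.38, 0.64 and -0.45.

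The regulators of HIF were all dim and none was over 2-fold apart by its brightest probe. HIF1A, the oxygen-regulated subunit, had a signal of 139 in CD166+ SW1990 cells and 75.9 in CD166- SW1990 cells, a log2 fold of 0.87. In CD166+ Panc-1 cells it was not detected (36.4), against 54.4 in CD166- Panc-1 cells, at least 1.46-fold lower. A second HIF1A probe was at least 3.46-fold higher in CD166+ SW1990 cells, with 144 against an undetected 26.9, and in Panc-1 had 48.2 in CD166+ cells against an undetected 38.9 in CD166- cells. The HIF1A probes thus put SW1990 on the same side and Panc-1 on opposite sides. EGLN1, the main prolyl hydroxylase, had 115 in CD166+ and 90.5 in CD166- SW1990 cells, and 96.5 in CD166+ and 111 in CD166- Panc-1 cells. KDM3A, a histone demethylase and HIF target, had log2 folds of -0.17 in SW1990 and -0.13 in Panc-1.

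Of the other HIF targets, 5 of 7 were over 2-fold higher in CD166+ SW1990 cells and none lower, beside 13.6% and 14.2% of all genes. The stretch of 250 bases before the start of transcription is shown for the 4 of these 5 that the sequence table held, since HIF is known to bind DNA at the core letters ACGTG or GCGTG. The sequences are from RefSeq (GRCh38.p14), written 5′ to 3′ on the strand of the gene, with either core on either strand in capitals. The window of BNIP3 is chr10:131981924-131982173 (minus strand), of CA12 chr15:63381847-63382096 (minus), of ANKRD37 chr4:185396591-185396840 (plus) and of ADM chr11:10304823-10305072 (plus).
BNIP3: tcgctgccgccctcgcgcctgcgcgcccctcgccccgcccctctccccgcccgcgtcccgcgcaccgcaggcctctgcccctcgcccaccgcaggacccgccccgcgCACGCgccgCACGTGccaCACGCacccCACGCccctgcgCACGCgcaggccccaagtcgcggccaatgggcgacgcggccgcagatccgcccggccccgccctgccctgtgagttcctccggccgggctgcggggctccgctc
CA12: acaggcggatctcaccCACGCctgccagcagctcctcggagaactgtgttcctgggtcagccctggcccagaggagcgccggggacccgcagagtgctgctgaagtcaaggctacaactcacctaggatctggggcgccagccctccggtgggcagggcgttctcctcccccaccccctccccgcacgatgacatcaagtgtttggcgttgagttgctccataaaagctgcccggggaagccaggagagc
ANKRD37: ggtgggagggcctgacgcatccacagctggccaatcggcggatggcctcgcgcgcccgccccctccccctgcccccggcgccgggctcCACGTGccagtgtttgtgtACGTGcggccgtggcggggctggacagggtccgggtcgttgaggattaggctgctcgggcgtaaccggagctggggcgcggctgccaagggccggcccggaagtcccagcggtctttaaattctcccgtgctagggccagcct
ADM: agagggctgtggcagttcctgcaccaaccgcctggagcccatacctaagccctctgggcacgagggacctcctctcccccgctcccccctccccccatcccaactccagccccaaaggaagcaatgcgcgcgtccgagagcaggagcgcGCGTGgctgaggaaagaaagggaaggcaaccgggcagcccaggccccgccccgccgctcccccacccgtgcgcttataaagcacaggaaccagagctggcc
BNIP3 held 2 ACGTG and 4 GCGTG matches, ANKRD37 held 3 ACGTG matches, and CA12 and ADM held 1 GCGTG match each. The letters CACGTG read as ACGTG on both strands and count as 2 overlapping matches. Of 29 genes of the set in the table, 11 held ACGTG (37.9%) and 12 held GCGTG (41.4%), where 18.7% and 31.9% of 27305 promoters of the same length did. Either core was in 65.5% of the set and in 43.1% of all promoters. The set was chosen partly for known HIF targets, so a higher share can follow from that choice and is no result of these arrays. The 27305 promoters were not limited to genes named or detected on the array. A match of letters is a description and does not show a bound site. LDHB and HK1 held neither core in this window.

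BNIP3 (chr10:131967684-131981923), a receptor that directs mitochondria to autophagy, had a signal of 1837 in CD166+ SW1990 cells and was not detected in CD166- SW1990 cells (39.1), so that it was at least 44.2-fold higher. This bound, 5.47 on the log2 scale, was 4.30 without background correction, 4.63 with an offset of 50 and 4.32 on the authors' scaled values. Panc-1 had 1542 in CD166+ and 1665 in CD166- cells. Its relative BNIP3L had 233 in CD166+ and 240 in CD166- SW1990 cells, and 157 in CD166+ and 189 in CD166- Panc-1 cells. Only BNIP3 of this pair was divided in SW1990, and neither was in Panc-1.

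NDRG1 (chr8:133237175-133297252), a stress-responsive gene linked to differentiation, had 2186 in CD166+ SW1990 cells, against 65.7 in CD166- SW1990 cells, or 33.3-fold more. Its log2 fold, 5.06, was 4.22 without background correction and 4.30 on the authors' scaled values. In Panc-1 it had 287 in CD166+ and 208 in CD166- cells, a log2 fold of 0.47, or 0.12 with the shared signal described for SLC2A3 subtracted. CA12, a surface carbonic anhydrase that turns CO2 into bicarbonate and acid, had 248 in CD166+ SW1990 cells and was not detected in CD166- SW1990 cells (34.1), at least 5.97-fold higher, with 60.5 in CD166+ and 50.7 in CD166- Panc-1 cells. The log2 bound, 2.58, was 1.66 without background correction, 1.90 with an offset of 50, 1.49 on the authors' scaled values and 1.39 as the mean over probes. The other detected CA12 probe was within 2-fold as a bound, at 47.6 in CD166+ SW1990 cells and undetected on the other 3 arrays.

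ANKRD37, a small ankyrin-repeat protein, had 178 in CD166+ SW1990 cells and was not detected in CD166- SW1990 cells (28.7), at least 4.28-fold higher, with 104 in CD166+ and 114 in CD166- Panc-1 cells. Its log2 bound, 2.10, was 1.28 without background correction, 1.49 with an offset of 50 and 1.08 on the authors' scaled values. ADM, the vasodilator adrenomedullin, had 2618 in CD166+ SW1990 cells, against 1281 in CD166- SW1990 cells, 2.04-fold higher, and 8142 in CD166+ and 10626 in CD166- Panc-1 cells, a log2 fold of -0.38. Both Panc-1 arrays were thus above both SW1990 arrays for ADM. VEGFA, the growth factor of blood vessels, differed by less than the SD between probes by its brightest probe. That probe had 121 in CD166+ and 130 in CD166- SW1990 cells, and 270 in CD166+ and 248 in CD166- Panc-1 cells. A second VEGFA probe, detected on every array, had log2 folds of -0.19 in SW1990 and -0.30 in Panc-1, the latter beyond the SD there.

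**Figure D3:**
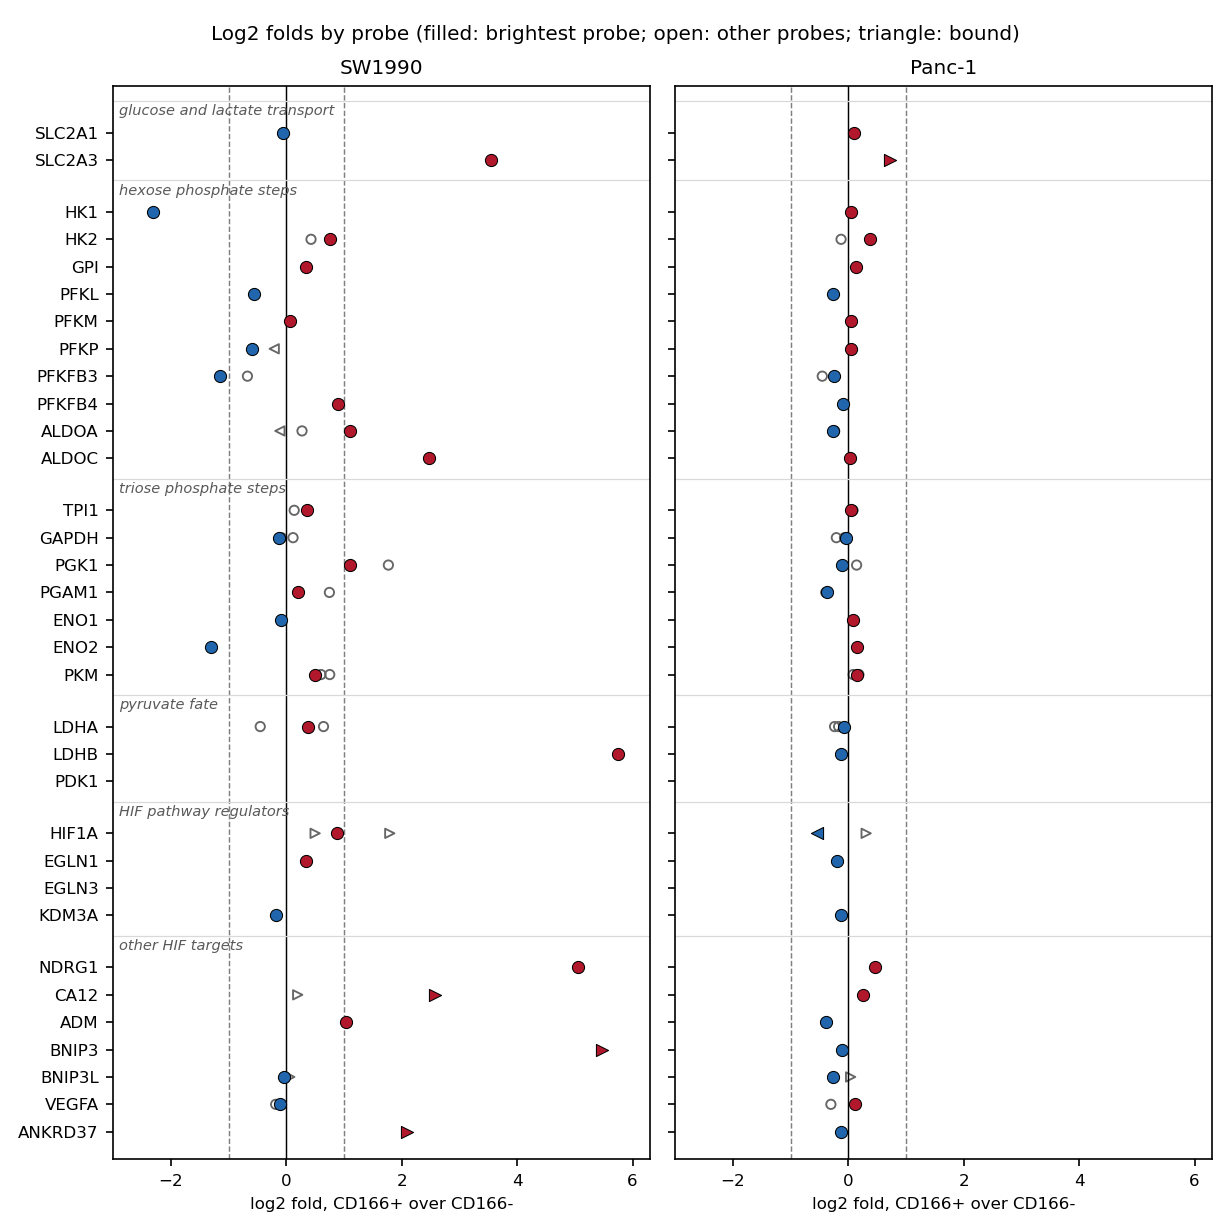
Log2 fold of CD166+ over CD166- cells for each detected probe, SW1990 on the left and Panc-1 on the right. Filled symbols are the brightest probe of a gene, open symbols its other probes, triangles bounds, and dashed lines mark 2-fold. LDHB at 5.75, BNIP3 at 5.47 and NDRG1 at 5.06 stand far to the right in SW1990, where HK1 at -2.31 is lowest, and no Panc-1 symbol of a brightest probe lies beyond the lines.

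Of the 13 genes over 2-fold apart in SW1990, 5 lay within 1 SD between probes of the 2-fold limit (ADM, ALDOA, ENO2, PFKFB3 and PGK1), and 4 of those inside 2-fold lay as near to it (HIF1A, HK2, PFKFB4 and PFKP). Among 14 genes with several detected probes, 10 had all probes on the same side and 10 had all probes on the same side of the 2-fold limit.

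Across the lines, limma was fitted with CD166 state and cell line on all 4 arrays, over 10367 genes detected on at least 2 arrays, with 1 residual degree of freedom. None of the 31 genes differed by CD166 state at an adjusted p under 0.05 (limma, lowest adjusted p = 0.922), and 0 of 10367 genes did (0%). SLC2A3 was the 1 gene of the set at an unadjusted p under 0.05, where 1.54% of all genes were, with a log2 fold of 2.51 ± 0.61 (SE, limma unadjusted p = 0.0109). The Panc-1 side of that value, a log2 fold of 1.48, was taken from a CD166- signal that was not detected. The CD166+ signal fell below the lowest detected signal once the shared signal was subtracted. Whether that subtraction is right for SLC2A3 was not tested. The fit gave LDHB a log2 fold of 2.81 with the Panc-1 pair at -0.13, so such means rest on SW1990. An exact test over 2 pairs cannot go below p = 0.5.

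The same limma fit gave the difference between the lines. None of the 31 genes passed the adjusted threshold, where 0.81% of all genes did, and 7 of 31 had an unadjusted p under 0.05, where 16.3% of all genes did. SLC2A3 came nearest, with a log2 difference of SW1990 minus Panc-1 of 3.92 ± 0.61 (SE, limma adjusted p = 0.0844). The other 6 were HK2, PFKL and PFKM with higher signals in SW1990, and ADM, ALDOA and VEGFA with lower ones. On the scaled values that the authors deposited SLC2A3 passed, with an adjusted p of 0.0477 by limma. That setting called 308 of 10367 genes by line, against 84 in the main fit. The Panc-1 side of SLC2A3 was again 1 dim and 1 undetected signal.

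The neighbouring pathways were read from lists of further genes. Of 18 other detected genes of sugar uptake and glycolysis, 4 were over 2-fold higher in CD166+ SW1990 cells and 0 lower, where 13.6% of all genes were higher and 14.2% lower. ENO3, the muscle enolase, had 2052 in CD166+ and 139 in CD166- SW1990 cells, and SLC2A8, an intracellular hexose transporter, had 1577 in CD166+ and 206 in CD166- SW1990 cells. GALM, which interconverts sugar anomers, was at least 5.17-fold higher, and GPD1L, related to glycerol phosphate dehydrogenase, was 2.59-fold higher. Together with ENO1 and ENO2 the 3 enolases thus took 3 different positions in SW1990.

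Of 11 genes of pyruvate entry to mitochondria, 4 were over 2-fold higher and 0 lower in CD166+ SW1990 cells, with a list median of 0.74, beside the same 13.6% and 14.2% of all genes. PDK4 and PDK3, kinases that inactivate pyruvate dehydrogenase, had 362 and 215 in CD166+ SW1990 cells and were not detected in CD166- SW1990 cells, at least 8.73-fold and 5.18-fold higher. PDHB, a subunit of the dehydrogenase itself, had 4056 in CD166+ and 1040 in CD166- SW1990 cells. PC, pyruvate carboxylase, was 2.03-fold higher, and its log2 fold of 1.02 was 0.82 without background correction, 0.88 with an offset of 50, 0.75 on the authors' scaled values and 0.63 as the mean over probes. Genes that restrain the dehydrogenase and a gene that builds it were therefore both among the higher ones. Of 6 pentose phosphate genes only PGLS, the lactonase, was over 2-fold apart, at 1506 in CD166+ and 442 in CD166- SW1990 cells. Beside it stand the same 13.6% of all genes higher and 14.2% lower.

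Of 10 genes of the HIF machinery, 1 was over 2-fold higher and 3 were lower in CD166+ SW1990 cells, beside 13.6% and 14.2% of all genes. EPAS1, the other main HIF alpha subunit, had 625 in CD166+ SW1990 cells and was not detected in CD166- SW1990 cells (26.0), at least 15.0-fold higher, with 1213 in CD166+ and 1315 in CD166- Panc-1 cells. CITED2, which competes with HIF for its coactivators, had 314 in CD166+ and 942 in CD166- SW1990 cells, and 479 in CD166+ and 886 in CD166- Panc-1 cells. CITED2 was lower in the CD166+ cells of both lines, over 2-fold in SW1990 only. EP300, a coactivator of HIF, was 2.46-fold lower and HIF3A at least 2.10-fold lower in CD166+ SW1990 cells. Without background correction these log2 folds were -0.79 and -0.56, inside 2-fold, and the mean over probes turned HIF3A to 0.38.

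Of 26 further HIF targets, 10 were over 2-fold higher and 5 lower in CD166+ SW1990 cells, with a median of 0.25, where 13.6% of all genes were higher and 14.2% lower. IGFBP3, a binding protein of insulin-like growth factors, had 1307 in CD166+ SW1990 cells, and PLOD2, a collagen lysyl hydroxylase, had 480 in CD166+ SW1990 cells. CD166- SW1990 cells detected neither, so that these were at least 31.5-fold and 11.5-fold higher. The mean over probes gave PLOD2 a log2 fold of 0.94. ADORA2B, an adenosine receptor, was undetected in CD166+ SW1990 cells and had 1068 in CD166- SW1990 cells, and ANGPTL4, an inhibitor of lipoprotein lipase, was undetected in CD166+ SW1990 cells and had 976 in CD166- SW1990 cells. They were at least 27.3-fold and 24.99-fold lower, and the mean over probes gave ANGPTL4 a log2 fold of -2.12. The list thus held genes detected only in CD166+ and genes detected only in CD166- SW1990 cells. No gene of these 5 lists was over 2-fold apart in Panc-1. For context, 0 of 20 cell cycle genes were over 2-fold higher and 2 lower in SW1990 (median -0.10), and 2 of 10 housekeeping genes were higher and 2 lower (median -0.14).

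**Figure D4:**
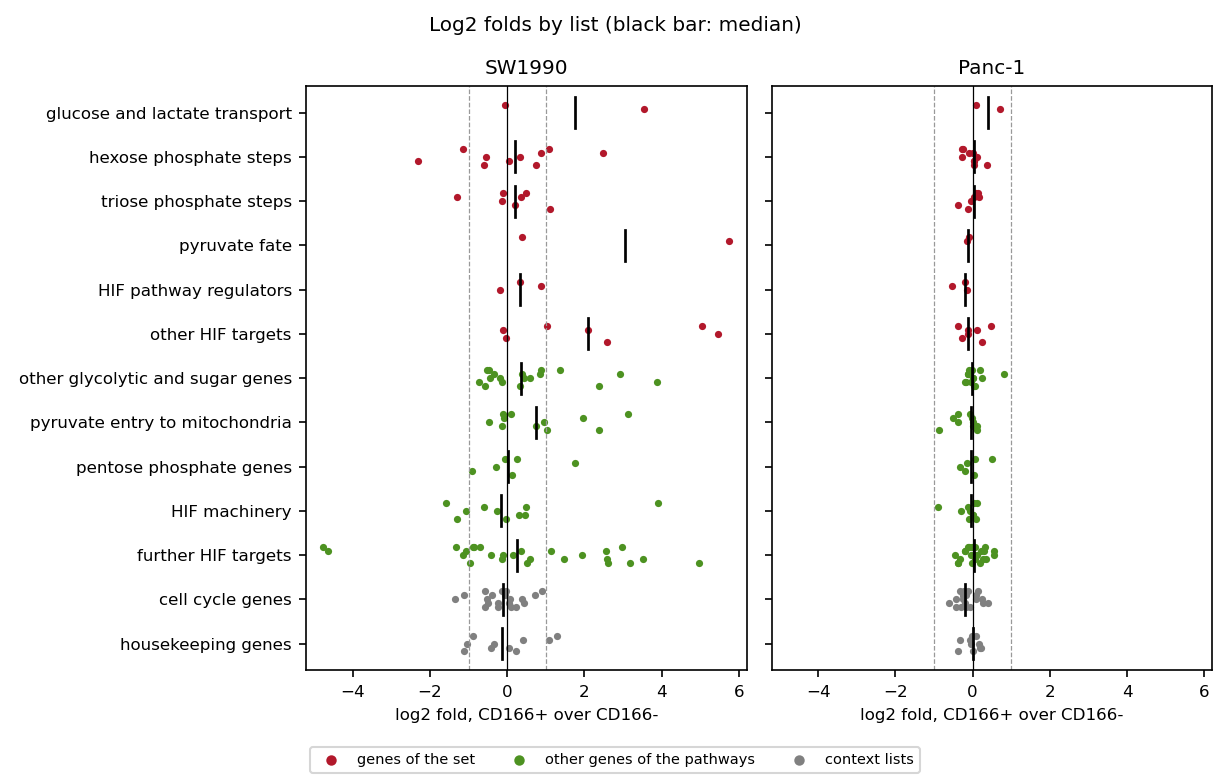
Log2 folds of CD166+ over CD166- cells by list, SW1990 on the left and Panc-1 on the right, with a dot per gene, a black bar at the median and dashed lines at 2-fold. Other HIF targets of the set have a median of 2.10 in SW1990, pyruvate entry genes 0.74 and further HIF targets 0.25, and every dot of these lists in Panc-1 lies inside the lines.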

How the data were processed

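RNA of 4 sorted populations was hybridized to Illumina HT-12v4 arrays, 1 each. Per probe, the deposited table gives a mean bead intensity from BeadStudio 3.2.3 that the authors had not normalized, beside a detection p-value. The deposited table of scaled intensity values is the same data times 1 factor per array (0.857 to 1.09) and served as an alternative. How arrays were scaled is not given in the sources used here, but the factors bring every array to the same mean intensity, 353.8.

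The function neqc of limma 3.58.1, run in R 4.3.3, was applied to these, with background fitted from the detection p-values, an offset of 16 and quantile normalization. Of 47315 probes, 30111 had 1 gene in the platform annotation, 8 several and 17196 none. Symbols were updated by Entrez number through RefSeq, where 27 numbers were not found. The lowest detected signals were 39.1, 41.5, 37.4 and 39.0 for CD166+ and CD166- SW1990 and CD166+ and CD166- Panc-1 cells. Across lines, lmFit and eBayes were used on measured signals, undetected ones included, with the line as a block and Benjamini-Hochberg adjustment over all genes. The pairing comes from the shared cell line. The 1 residual degree of freedom holds how far the SW1990 and Panc-1 folds of a gene differ, and eBayes moderates it by a spread estimated over all genes. P-values therefore do not measure a spread between replicate arrays. The number of arrays limits the precision. The scripts were tested on simulated data.

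Values on all arrays are given for genes over 2-fold apart in either line, for isoform pairs and for HIF1A. Of each further list, up to 4 genes over 2-fold apart with the largest folds in SW1990 are named. The genes, lists and tests were chosen with earlier results of these data known. Alternatives changed background, offset, scaling, detection limit, probe summary, fold limit, block, trend and test.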

Additional observations from a re-analysis of the deposited data

Results flagged for a closer look

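ADM and ALDOA were over 2-fold higher in CD166+ SW1990 cells, with log2 folds of 1.03 and 1.10, and ran the opposite way in Panc-1, with log2 folds of -0.38 and -0.26. With 1 array per population, this difference in direction was not tested. Both lay within 1 SD between probes of the 2-fold limit in SW1990, and the second bright ALDOA probe gave 0.27 there. Opposite signs in the lines are not particular to them: 17 of 31 genes of the set had them. So did 4508 of 9675 genes with a fold in both lines.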

How the results depend on the processing

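The 10 higher and 3 lower genes of SW1990 were all kept under an offset of 50, the authors' scaled values, undetected sides as measured, a detection limit of 0.05 and a fit with dim probes kept. ADM was lost without background correction. Scaling to the median lost PFKFB3 and gained HIF1A, HK2 and PFKFB4, and raised the median of the set to 0.83. The mean over probes lost ALDOA, HK1 and PFKFB3 and gained HIF1A, which left 1 lower gene, and over 3-fold also left 1 lower gene and 7 higher ones. In Panc-1, 1 gene was higher (SLC2A3) under a detection limit of 0.05, with dim probes kept, with undetected sides as measured or at over 1.5-fold. Subtracting the shared signal, chosen after seeing the data, left 0. The ALCAM log2 fold was 1.78 in SW1990 and 1.55 in Panc-1 without background correction, 2.01 and 1.78 with offset 50, and 1.63 and 1.52 on scaled values. For the higher genes named that CD166- SW1990 cells did not detect, bounds shrank under these 3 settings, the log2 bound of EPAS1 being 2.83, 3.12 and 2.72 and that of IGFBP3 3.83, 4.15 and 3.82. The mean over probes reversed HIF3A in SW1990 to 0.38. Over all genes, SW1990 had 954 higher without background correction, 917 on scaled values, 2567 over 1.5-fold and 691 over 3-fold, with 2709 and 702 lower at those folds. Panc-1 had 33 higher and 9 lower without background correction, 40 and 17 with offset 50, 27 and 9 on scaled values, 268 and 276 over 1.5-fold, 25 and 3 over 3-fold, and 39 higher with the shared signal subtracted. Across the lines no alternative called a gene of the set by CD166 state, and with no replicate block 0 of 31 were called (lowest limma adjusted p = 0.999) and 55 genes had an unadjusted p under 0.05, against 160 with the line as a block, 100 without background correction, 101 with offset 50 and 332 on scaled values. The methods' t-test called 0. Genes called by line ranged between 0 and 308, with 1 of the set on scaled values (limma adjusted p = 0.0477). Leaving out either pair leaves no residual degrees of freedom and so no test. Dim probes near the lowest detected signal give bounds only, BNIP3 in CD166- SW1990 cells having a detection p of 0.0143.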

Other observations

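Seen gene by gene, CD166- SW1990 cells were nearer than CD166+ SW1990 cells to the mean of Panc-1 for 17 of 31 genes of the set (54.8%), and for 6395 of 11640 genes on the array (54.9%). Across the 31 genes, the log2 signals of the SW1990 pair correlated at 0.699 and those of the Panc-1 pair at 0.992, with genes that are not independent. CD166+ SW1990 cells correlated at 0.840 with CD166+ and 0.796 with CD166- Panc-1 cells. For CD166- SW1990 cells these values were 0.808 and 0.793. Over these genes the SW1990 arrays were thus less alike than either was to the Panc-1 arrays. LDHB, BNIP3 and ANKRD37 were at high or moderate signals on 3 arrays and low or undetected in CD166- SW1990 cells alone, while HK1 was low in CD166+ SW1990 cells alone.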
